A study of Mus musculus with 15 samples.

Results

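The potassium channel genes measured here were the genes whose symbol in the array annotation begins with Kcn. Probe sets assigned to exactly 1 symbol were kept, which gave 167 Kcn probe sets of 34945, for 84 Kcn genes of 18193 genes on the array. For a gene with several probe sets, the one with the highest average over the 15 arrays stood for it. They comprised 43 voltage-gated subunits (22 that form the pore, 9 modulatory subunits and 12 auxiliary subunits), 15 inward rectifiers, 12 two-pore channels, 11 calcium-activated channels with their relatives and 3 noncoding transcripts named after channel genes.

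The study profiled mouse cells sorted by flow cytometry into a side population (SP), the cells that export a DNA-binding dye, and the remaining non-side population (non-SP). All donor cells carried the S100beta-verbB transgene on a p53-/- or p53+/- background, in which the promoter of the glial gene S100b drives v-erbB, an activated relative of the epidermal growth factor receptor. 2 tumoursphere lines, 3447 and 4346, had been cultured from brain tumours of such mice, and the labels do not say which p53 genotype belonged to which line. Each line was injected into brains of immunodeficient NOD.Cg-Prkdc<scid>Il2rg<tm1Wjl>/SzJ hosts, and spheres were cultured again from 3 host tumours per line before sorting. The tumour groups were line 3447 SP, line 3447 non-SP and line 4346 SP, with 3 arrays each. The untransformed control groups were neurosphere SP and neurosphere non-SP, also with 3 arrays each, from mice of the same transgenic genotypes. The design text describes the neurospheres once as taken from 3 independent mice and once as cultured from mice that had received them by injection. No age or treatment is given. Each tumour group was thus 1 injected line passed through 3 hosts, so its spread, and every p-value that rests on it, does not cover differences between independent tumours. In bulk RNA of this kind, fewer cells expressing a gene and less RNA per cell cannot be told apart.

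Potassium channels let potassium ions leave or enter the cell along their gradient, and so set the resting membrane potential and the shape and rate of electrical signals. Voltage-gated channels are tetramers of pore subunits joined by modulatory and auxiliary subunits. Inward rectifiers and two-pore channels carry the resting conductance, and calcium-activated channels couple the membrane potential to calcium. In brain, astrocytes are known for inward rectifiers that take up potassium, oligodendrocyte progenitors for outward voltage-gated currents, and neurons for a wide set of voltage-gated channels.

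Of the 84 genes, 39 exceeded the median signal of the array on at least 3 arrays and were tested. They were 12 voltage-gated pore subunits, 2 modulatory subunits, 4 auxiliary subunits, 6 inward rectifiers, 6 two-pore channels, 7 calcium-activated channels and 2 noncoding transcripts. A gene can pass this filter through 1 group alone, so counts over the 39 describe detected channels and not the family. The other 45 genes had signals between 0.269 and 172, with gene medians between 1.51 and 40.8, and 30 of them exceeded the median on none of the 15 arrays.

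Array medians of the deposited signal ran from 40.0 to 89.3, and line 3447 SP array 3 was at the top of this range. Its rank correlation with the other arrays of its group, 0.855 on average, was the lowest of the 15. Line 4346 SP array 3 had the highest 3-prime to 5-prime ratio of the actin control, 5.30 against 2.49 to 3.29 on the other arrays. Leaving out line 3447 SP array 3 reduced the Kcn genes called between line 3447 SP and neurosphere SP from 18 to 13, and all genes called from 2335 to 1699. Leaving out neurosphere SP array 1 gave 12 and 1732 in that comparison, so such a fall was not particular to line 3447 SP array 3. Leaving out line 4346 SP array 3 changed the Kcn genes called between line 4346 SP and neurosphere SP from 18 to 17, and all genes called from 2888 to 2273. Of 9 oligodendrocyte progenitor markers, 9 were measured, and their summed signal was 17506 to 20864 in line 3447 SP, 21800 to 27680 in line 3447 non-SP and 26992 to 28850 in line 4346 SP. The same sum was 9558 to 15496 in neurosphere SP and 11868 to 15538 in neurosphere non-SP, where mean Sox10 lay below the array median. Of the 9, 5 were called higher and 2 lower in line 3447 SP than in neurosphere SP, 6 and 1 in line 4346 SP, and 4 and 1 in line 3447 non-SP. Olig1 and Olig2 had lower means in the tumour groups (1690 to 2879 and 1952 to 2798) than in the neurosphere groups (4010 to 4469 and 4586 to 4692). Of 10 astrocyte markers, 10 were measured, with sums of 7121 to 15194 over the tumour arrays and 19784 to 42806 over the neurosphere arrays. Aqp4, an astrocyte water channel, lay below the array median in each tumour group. S100b went the other way, with group means of 3773 to 5050 in tumour and 205 to 256 in neurosphere cells. Of 9 astrocyte markers tested, 1 was called higher in each tumour comparison, and 5, 3 and 4 were called lower in line 3447 SP, line 4346 SP and line 3447 non-SP. The 6 measured endothelial markers and the microglia list were mostly below the array median in every group, with sums up to 221 and 452 on tumour arrays and up to 2089 and 598 on neurosphere arrays. Flt1, on the endothelial list, had group means of 878 and 287 in neurosphere SP and non-SP against 4.11 to 45.5 in tumour cells. Pecam1, Cdh5, Cldn5 and Kdr were below the array median in every group. The 1 endothelial marker tested was called lower in each tumour comparison, and 0 of 2 tested microglia markers were called. The 10 neuron markers summed to 563 to 1374 on tumour arrays and 1185 to 2154 on neurosphere arrays. Among them Tubb3 went the other way, with group means of 479 to 564 in tumour and 83.8 to 118 in neurosphere cells. Of 7 neuron markers tested, 1 was called higher in each tumour comparison, and 4, 3 and 4 were called lower in line 3447 SP, line 4346 SP and line 3447 non-SP. The 8 measured oligodendrocyte markers summed to 16300 to 26869 on tumour arrays and 3420 to 7084 on neurosphere arrays. Mag, Mog, Mobp, Opalin and Ermn were below the array median in all groups. Mbp, Cnp and Cldn11 made up most of the tumour sums, with Mbp group means of 8316 to 9377 in tumour and 14.3 to 33.1 in neurosphere cells. Of the 4 oligodendrocyte markers tested, 2, 3 and 3 were called higher in line 3447 SP, line 4346 SP and line 3447 non-SP, and 0 lower. The 8 pericyte and smooth muscle markers, a list that holds Kcnj8, summed to 1124 to 5124 on tumour arrays and 230 to 478 on neurosphere arrays. Cspg4, which is also in the progenitor list, made up most of the tumour sums, with group means of 1182 to 2810 against 123 to 143, while the other 7 had group means of at most 107.7. Of the 4 tested, 1 was called in each tumour comparison, as higher. The 8 neural stem and progenitor markers summed to 32597 to 39577 on tumour arrays and 38489 to 51928 on neurosphere arrays. Of these 8, 0 were called higher, and 4, 5 and 2 were called lower in line 3447 SP, line 4346 SP and line 3447 non-SP. The part of these cell type differences in the channel results was not tested.

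The sequences just upstream of 6 channel genes are shown. These genes were chosen among those called in each tumour comparison and present in the promoter table. In each direction, the 3 that differed most between line 3447 SP and neurosphere SP were taken. Kcna4, Kcna6 and Kcne4 were higher in tumour cells, and Kcnc4, Kcnf1 and Kcnc1 were lower. Each run is the 100 bases before the transcript start, read 5′ to 3′ on the gene's strand from RefSeq, build GRCm38.p6, with capitals marking a motif match on either strand.
Kcna4: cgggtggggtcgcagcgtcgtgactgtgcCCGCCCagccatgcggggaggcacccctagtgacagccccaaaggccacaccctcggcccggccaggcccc
Kcna6: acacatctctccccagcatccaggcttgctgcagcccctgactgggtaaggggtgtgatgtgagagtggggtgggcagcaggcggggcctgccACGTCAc
Kcne4: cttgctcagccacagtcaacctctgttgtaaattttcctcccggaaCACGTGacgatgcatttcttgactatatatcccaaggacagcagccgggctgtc
Kcnc4: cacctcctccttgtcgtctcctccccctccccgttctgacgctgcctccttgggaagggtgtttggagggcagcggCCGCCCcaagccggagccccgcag
Kcnf1: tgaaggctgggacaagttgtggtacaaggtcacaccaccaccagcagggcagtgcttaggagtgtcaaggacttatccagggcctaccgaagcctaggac
Kcnc1: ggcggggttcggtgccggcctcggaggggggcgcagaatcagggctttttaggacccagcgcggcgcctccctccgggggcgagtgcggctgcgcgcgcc
The windows lie at chr2:107290489-107290588 (plus strand) for Kcna4, chr6:126740675-126740774 (minus strand) for Kcna6 and chr1:78816811-78816910 (plus strand) for Kcne4. Those of the lower genes lie at chr3:107458899-107458998 (minus strand) for Kcnc4, chr12:17176889-17176988 (minus strand) for Kcnf1 and chr7:46396368-46396467 (plus strand) for Kcnc1. Of 5 motifs searched on both strands, the GC box GGGCGG was present in the Kcna4 and Kcnc4 windows and in 24.7% of all 32851 windows of this length. The shortened cAMP-response motif TGACGT was in the Kcna6 window and in 4.09% of all windows, and the E-box CACGTG in the Kcne4 window and in 3.17%. The TATA box TATAAA (5.56% of all windows) and the SOX core ACAAAG (6.56%) were in none of the 6, and the Kcnf1 and Kcnc1 windows held none of the 5 motifs. Over the 89 windows of the 64 Kcn genes in the table, 32.6% held the GC box, 1.12% the TATA box, 3.37% the E-box, 3.37% the SOX core and 2.25% the cAMP-response motif. The GC box was thus shown by 1 gene higher and 1 gene lower in tumour cells, and no motif was found in more than 1 of the 3 windows shown for either direction.

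Tumour cells and neurospheres differed at many potassium channel genes in both directions. Between line 3447 SP and neurosphere SP, 8 of the 39 tested genes were higher and 10 were lower in tumour cells at an adjusted p under 0.05, against 19.6% of all 11893 tested genes called in either direction (10.7% higher and 8.96% lower). Between line 4346 SP and neurosphere SP, 10 were higher and 8 were lower, where 24.3% of all genes were called (14.0% higher and 10.3% lower). Between the non-SP groups of line 3447 and neurospheres, 8 were higher and 7 were lower, where 19.4% of all genes were called (11.2% higher and 8.20% lower). The Kcn shares among genes past the filter, 46.2%, 46.2% and 38.5%, exceeded these backgrounds. Their size rests on that filter, which a low gene can pass through the 1 origin where it is higher. With no filter, 17, 20 and 14 of 84 Kcn genes were called, beside 2059, 2622 and 2035 of 18193 genes. The median differences of the 39 genes were 0.04, -0.38 and -0.30 on the log2 scale beside -0.03, 0.02 and 0.04 over all tested genes. Both SP comparisons share the neurosphere SP arrays. All adjusted p-values come from limma with Benjamini-Hochberg adjustment over the 11893 genes.

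**Figure D1:**
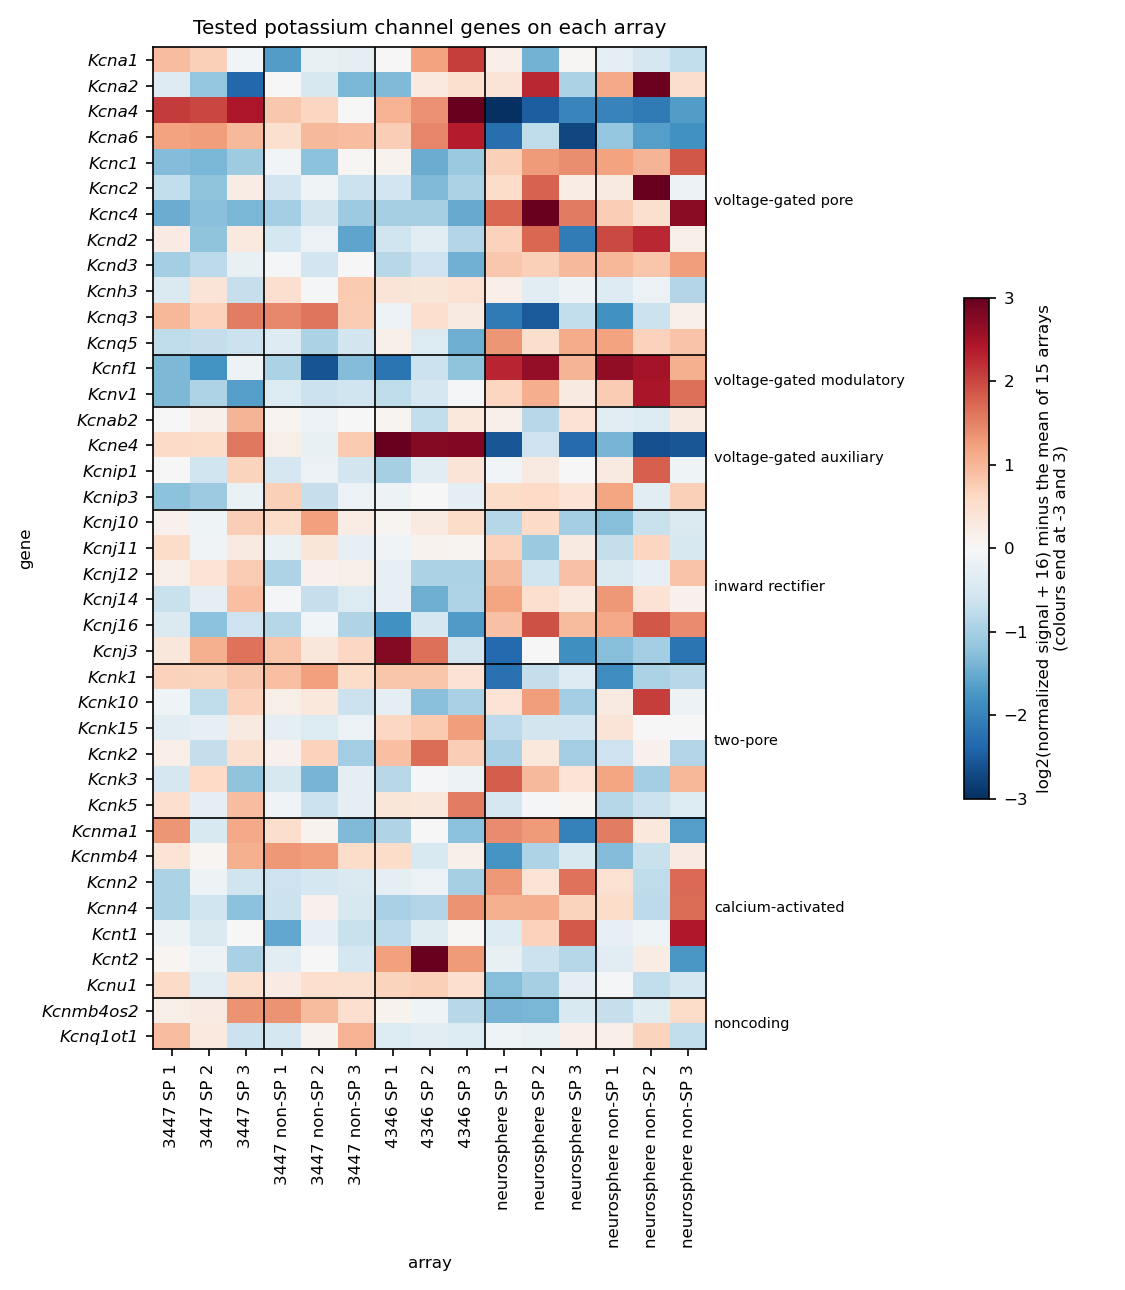
Each row is 1 of the 39 tested potassium channel genes and each column 1 of the 15 arrays. Colour gives the log2 normalized signal (with 16 added) minus the gene's mean over the arrays, red for higher and blue for lower, with genes in class order. Kcna4 and Kcna6 run from dark red to near white on the tumour arrays and are blue in neurospheres, and Kcnf1 is red in neurospheres.

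6 genes were higher in each of these 3 comparisons, namely Kcna4, Kcna6, Kcnq3, Kcne4, Kcnj3 and Kcnk1. 6 others were lower in each, namely Kcnc1, Kcnc4, Kcnd3, Kcnq5, Kcnf1 and Kcnj16. Each set is 15.4% of the 39 tested, beside 6.73% of all genes called higher and 4.31% called lower in all 3. The SP comparisons share the neurosphere SP arrays. Both sets mix classes, with pore subunits, a modulatory or auxiliary subunit and an inward rectifier in each. Of the 8 genes higher in line 3447 SP, 7 were also among the 8 higher in line 3447 non-SP, which is 87.5% of either list and compares with 74.9% and 71.4% of the lists over all genes. Of the 10 genes lower in line 3447 SP, 7 (70.0%) were also lower in the non-SP comparison, where they made up all 7 (100%), beside 64.4% and 70.5% over all genes. 15 tested genes were called in none of the 3 comparisons nor between the lines.

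**Figure D2:**
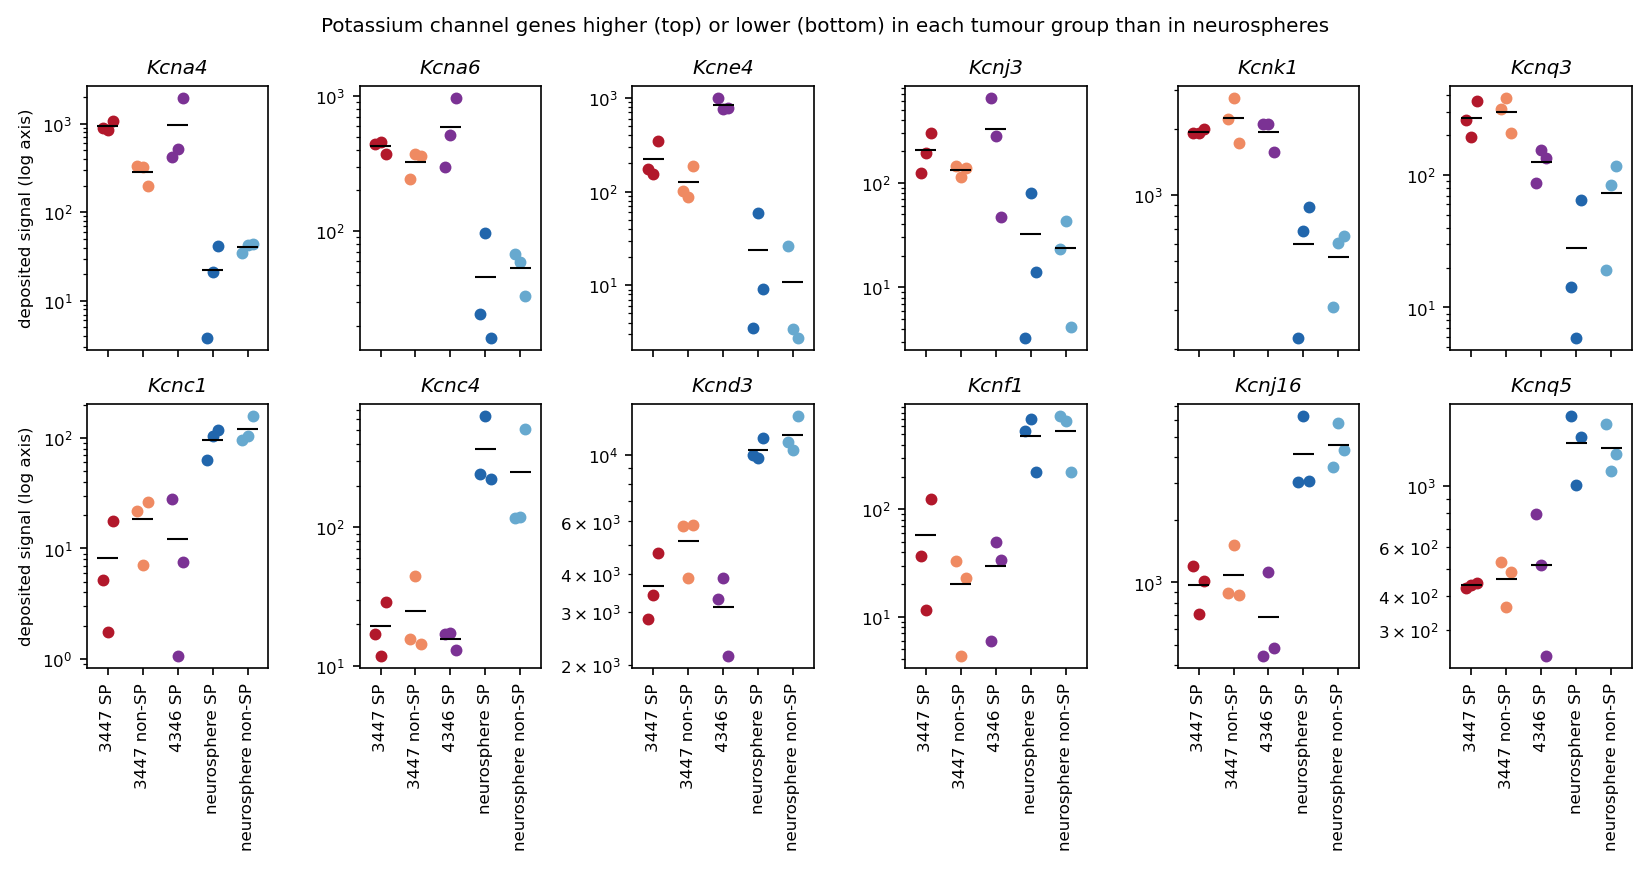
Points are the deposited signals of single arrays on a log axis, 3 per group, and bars are group means, for the 6 genes higher (top row) and the 6 genes lower (bottom row) in each tumour comparison. The tumour and neurosphere points are apart in all panels except Kcnj3, where 1 line 4346 SP array at 47.1 lies below a neurosphere SP array at 79.4, and Kcnq3, where a line 4346 SP array at 87.4 lies below a neurosphere non-SP array at 118.

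Among voltage-gated pore subunits, 3 of 12 tested genes were higher and 4 were lower in every tumour comparison. Kcna4, a Shaker-type subunit that carries a fast-inactivating outward current, had signals of 903, 849.8 and 1075 in line 3447 SP, 337, 322 and 199.9 in line 3447 non-SP and 418, 519.5 and 1953 in line 4346 SP. In neurospheres its signals were 3.80, 21.4 and 42.0 in SP cells and 34.6, 42.7 and 43.4 in non-SP cells. All 9 tumour arrays were above all 6 neurosphere arrays. The log2 difference was 4.78 ± 0.48 (SE, adjusted p = 3.09e-06) in line 3447 SP, a 27.4-fold difference on the scale with 16 added, 4.49 ± 0.48 (adjusted p = 5.52e-06) in line 4346 SP and 2.42 ± 0.48 (adjusted p = 0.00175) in the non-SP cells. Averaging all probe sets of Kcna4 lowered these to 2.51, 2.27 and 1.17, still past the threshold.

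Kcna6, another Shaker-type subunit and a delayed rectifier, read 442, 459 and 369.9 in line 3447 SP, 241, 369 and 360.1 in line 3447 non-SP and 299, 515 and 964 in line 4346 SP. Its neurosphere signals were 24.4, 96.5 and 16.2 in SP cells and 67.6, 59.5 and 33.4 in non-SP cells. The lowest tumour array was above the highest neurosphere array. The log2 differences were 3.05 ± 0.45 (adjusted p = 0.00015), 3.43 ± 0.45 (adjusted p = 4.87e-05) and 2.34 ± 0.45 (adjusted p = 0.00151) in line 3447 SP, line 4346 SP and line 3447 non-SP. With all its probe sets averaged they were 1.08, 1.29 and 0.87, and stayed past the threshold. Kcna6 lies beside Kcna1 on chromosome 6, with Kcna5 on the far side of Kcna1, and neither was called. Kcna1 was tested and called in none of the comparisons, with log2 differences of 0.92, 1.49 and -0.22 (adjusted p = 0.287, 0.0690 and 0.837). Another Kcna1 probe set that passed the level filter gave larger SP differences, 2.32 and 2.69, and -0.003 in the non-SP cells. Kcna5 did not pass the filter.

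Kcnq3 forms, with its close relatives, the slow M-type current that dampens excitability. Its signals were 259, 194 and 362 in line 3447 SP, 316, 382 and 207 in line 3447 non-SP, 87.4, 155.9 and 134 in line 4346 SP, 14.3, 5.88 and 64.5 in neurosphere SP and 19.0, 83.7 and 118 in neurosphere non-SP. Within each comparison the groups did not overlap, although line 4346 SP was the nearest of the tumour groups to the neurosphere range. The differences were 2.86 ± 0.50 (adjusted p = 0.000719), 1.99 ± 0.50 (adjusted p = 0.0089) and 2.03 ± 0.50 (adjusted p = 0.00879) in line 3447 SP, line 4346 SP and line 3447 non-SP. Without neurosphere non-SP array 1 the last was 1.501 (adjusted p = 0.0516), and averaging probe sets gave 1.36, 1.18 and 1.24, still called.

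Kcnq5, which forms M-type channels with Kcnq3, went the opposite way. It read 426, 438 and 445 in line 3447 SP, 529, 365 and 487 in line 3447 non-SP and 792, 518 and 241 in line 4346 SP, against 1795, 1012 and 1515 in neurosphere SP and 1679, 1134 and 1312 in neurosphere non-SP. No tumour array reached a neurosphere array. It fell by 1.70 ± 0.34 (adjusted p = 0.0021), 1.56 ± 0.34 (adjusted p = 0.00337) and 1.55 ± 0.34 (adjusted p = 0.00402) on the log2 scale. With its probe sets averaged the values were -0.91, -0.94 and -0.54, and the non-SP call was lost (adjusted p = 0.185).

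Both called Shaw-type subunits, Kcnc1 and Kcnc4, which open only at strong depolarisation and serve fast firing, were lower in tumour cells. Kcnc4 read 17.1, 11.7 and 29.0 in line 3447 SP, 15.6, 44.3 and 14.4 in line 3447 non-SP and 16.9, 17.3 and 13.0 in line 4346 SP, against 242, 631 and 222 in neurosphere SP and 117, 119 and 512 in neurosphere non-SP. All tumour arrays were below the neurosphere arrays, and each of them was also below its array's median. Its log2 differences were -3.48 ± 0.51 (adjusted p = 0.000137), -3.27 ± 0.51 (adjusted p = 0.000231) and -2.20 ± 0.51 (adjusted p = 0.00584), or -2.14, -2.06 and -1.20 with probe sets averaged. Kcnc1 had signals of 5.23, 1.75 and 17.6 in line 3447 SP, 21.7, 7.06 and 26.1 in line 3447 non-SP and 28.1, 1.05 and 7.59 in line 4346 SP, against 62.7, 105 and 117 in neurosphere SP and 96.7, 105 and 157 in neurosphere non-SP. It too showed no overlap. The differences were -2.39 ± 0.47 (adjusted p = 0.00177), -1.96 ± 0.47 (adjusted p = 0.00614) and -1.78 ± 0.47 (adjusted p = 0.0129). The non-SP call on Kcnc1 was lost without neurosphere non-SP array 3 (adjusted p = 0.0586) or line 3447 non-SP array 2 (adjusted p = 0.0700), and averaging its probe sets reduced the SP differences to -1.37 and -1.11, still called. Kcnc2, the other Shaw-type member tested, was not called, with differences of -1.42, -1.80 and -1.55 (adjusted p = 0.175, 0.0735 and 0.142).

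Kcnd3, a Shal-type subunit of the low-threshold A-type current, was lower in tumour cells with the smallest standard error among the 12 genes called throughout. It read 2846, 3418 and 4718 in line 3447 SP, 5778, 3892 and 5832 in line 3447 non-SP and 3324, 3887 and 2135 in line 4346 SP. The neurosphere signals were 9993, 9755 and 11340 in SP cells and 11030, 10360 and 13410 in non-SP cells. Each tumour array was below each neurosphere array, while the signal stayed far above the array medians everywhere. It fell by 1.51 ± 0.23 (adjusted p = 0.000164), 1.79 ± 0.23 (adjusted p = 3.16e-05) and 1.23 ± 0.23 (adjusted p = 0.00101). Its close relative Kcnd2 was not called, with differences of -0.32 and -0.70 in the SP comparisons (adjusted p = 0.816 and 0.546) and -2.23 ± 0.77 in the non-SP comparison (adjusted p = 0.0521). The Kcnd2 arrays of the non-SP comparison, 260.2, 363 and 125 against 1662, 1949 and 452, did not overlap. That difference passed the threshold under 9 alternatives, among them without neurosphere SP array 3 (adjusted p = 0.00817), neurosphere non-SP array 3 (0.0191) or neurosphere SP array 2 (0.0286), and with the replicate number as a block (0.0258). Without neurosphere SP array 3 the line 4346 SP difference of Kcnd2 was -1.81 (adjusted p = 0.0459). Kcna2 and Kcnh3 were called in none of the comparisons, with differences of -1.86, -0.74 and -2.16 for Kcna2 (adjusted p = 0.109, 0.529 and 0.0637) and -0.15, 0.50 and 0.89 for Kcnh3 (adjusted p = 0.823, 0.335 and 0.0996).

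Of the modulatory subunits, which form no channel alone and alter the pore subunits they join, both tested genes were lower in tumour cells. Kcnf1 read 37.0, 11.7 and 124 in line 3447 SP, 32.96, 4.27 and 23.1 in line 3447 non-SP and 5.93, 49.8 and 33.6 in line 4346 SP, against 541.5, 696 and 221 in neurosphere SP and 736, 660.2 and 224 in neurosphere non-SP. The groups did not overlap, and the arrays numbered 3 were the lowest in both neurosphere groups. Its differences, -3.08 ± 0.59 (adjusted p = 0.0016), -3.33 ± 0.59 (adjusted p = 0.00072) and -3.69 ± 0.59 (adjusted p = 0.000333), were called in each comparison. Averaged over its probe sets they were -1.55, -1.66 and -1.96, still called. Kcnv1 read 9.49, 9.40 and 9.69 in line 3447 SP and 71.1, 109 and 59.3 in neurosphere SP, and 19.4, 26.1 and 15.5 against 82.7, 328.5 and 158 in the non-SP groups. It was lower in line 3447 in both (-1.98 ± 0.42, adjusted p = 0.00323, and -2.17 ± 0.42, adjusted p = 0.00155). In line 4346 SP its signals of 12.6, 17.9 and 39.5 gave a difference of -1.10 ± 0.42 that was not called (adjusted p = 0.0696). Other Kcnv1 probe sets that passed the level filter differed little between the lines. They gave -1.712 and -0.787 in line 4346 SP and -1.775 and -0.784 in line 3447 SP, each against neurosphere SP.

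Of 4 auxiliary subunits tested, Kcne4 was higher in every tumour comparison. It encodes a small membrane-spanning partner that damps several voltage-gated channels. Its signals were 175, 155 and 345 in line 3447 SP, 102, 88.0 and 187 in line 3447 non-SP and 998, 771 and 779.5 in line 4346 SP. In neurospheres it read 3.52, 58.6 and 9.12 in SP cells and 26.3, 3.42 and 2.73 in non-SP cells. All tumour arrays were above all neurosphere arrays, and line 4346 SP was the highest group. The differences were 2.74 ± 0.49 (adjusted p = 0.000875), 4.71 ± 0.49 (adjusted p = 4.81e-06) and 2.45 ± 0.49 (adjusted p = 0.0021) in line 3447 SP, line 4346 SP and line 3447 non-SP. Kcnip3, a calcium-binding partner of the Kcnd channels, was called lower in line 3447 SP, with signals of 83.1, 71.3 and 186 against 269, 284 and 247 in neurosphere SP. That difference of -1.36 ± 0.41 (adjusted p = 0.0270) was lost without line 3447 SP array 1 (adjusted p = 0.104) or neurosphere SP array 1, 2 or 3 (0.0719, 0.0684 and 0.0502). Its differences were -0.67 in line 4346 SP (adjusted p = 0.25) and -0.57 in the non-SP cells (adjusted p = 0.371). Kcnab2, a cytoplasmic partner of the Kcna channels, and Kcnip1 were called in none of the comparisons, with differences from -0.04 to 0.46 and from -1.05 to -0.04.

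The inward rectifiers had 1 gene higher and 1 lower in every tumour comparison. Kcnj16, which joins Kcnj10 in channels that sense pH in glia and kidney, read 1206, 702.5 and 1020 in line 3447 SP, 891, 1508 and 874.5 in line 3447 non-SP and 442, 1126 and 487 in line 4346 SP. Its neurosphere signals were 3028, 6260 and 3076 in SP cells and 3563, 5813 and 4329 in non-SP cells. Every neurosphere array was above every tumour array. It fell by 2.01 ± 0.37 (adjusted p = 0.00112), 2.59 ± 0.37 (adjusted p = 0.000113) and 2.08 ± 0.37 (adjusted p = 0.000812) on the log2 scale in line 3447 SP, line 4346 SP and line 3447 non-SP.

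Kcnj10, the main inward rectifier of astrocytes and oligodendrocyte lineage cells, was called in 1 comparison, in the direction opposite to Kcnj16. Its signals were 444, 371 and 654 in line 3447 SP, 573, 962 and 474 in line 3447 non-SP and 412, 468.5 and 584 in line 4346 SP, against 198, 581.5 and 184 in neurosphere SP and 149, 262 and 283 in neurosphere non-SP. The non-SP groups were apart, while neurosphere SP array 2 fell within the range of both tumour SP groups. The non-SP difference was 1.46 ± 0.40 (adjusted p = 0.0169), while the SP differences were 0.68 ± 0.40 (adjusted p = 0.266) and 0.72 ± 0.40 (adjusted p = 0.207). Without neurosphere SP array 2 both SP differences passed, at 1.18 (adjusted p = 0.0331) and 1.23 (adjusted p = 0.0247). The non-SP call was lost without neurosphere non-SP array 1 (adjusted p = 0.0798) or line 3447 non-SP array 2 (adjusted p = 0.0878).

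Kcnj3, a G protein-gated channel that slows firing, read 123, 194 and 300.6 in line 3447 SP, 145, 114 and 137 in line 3447 non-SP and 644, 281 and 47.1 in line 4346 SP, against 3.28, 79.4 and 14.0 in neurosphere SP and 23.3, 43.2 and 4.22 in neurosphere non-SP. Both line 3447 groups were above their controls, and the line 4346 SP arrays overlapped theirs. The differences were 2.41 ± 0.70 (adjusted p = 0.0234), 2.68 ± 0.70 (adjusted p = 0.0111) and 2.09 ± 0.70 (adjusted p = 0.0475). These calls were the least stable of the 12 genes. The line 3447 SP call was lost without neurosphere SP array 1 or 3 or line 3447 SP array 2 or 3 (adjusted p = 0.106, 0.0738, 0.0604 and 0.0953), and with probe sets averaged (0.90, adjusted p = 0.0606). The line 4346 SP call was lost without neurosphere SP array 1 or line 4346 SP array 1 (adjusted p = 0.0545 and 0.0572), and was 1.13 with probe sets averaged. The non-SP call was lost under 15 of 25 alternatives, 10 of them the omission of 1 array, with adjusted p between 0.0522 and 0.143 under these omissions, and was 0.99 with probe sets averaged (adjusted p = 0.0404). Those 10 arrays were each of the neurosphere non-SP, line 3447 non-SP and line 3447 SP arrays and line 4346 SP array 2.

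Kcnj14, a classical strong inward rectifier, was lower in line 4346 SP, with 24.0, 3.09 and 15.4 against 109.5, 67.1 and 60.1 in neurosphere SP (-1.54 ± 0.47, adjusted p = 0.0269). The call was lost without neurosphere SP array 1 or 2 (adjusted p = 0.107 and 0.0517) or line 4346 SP array 2 or 3 (0.0979 and 0.0638). Its other differences were -0.69 and -0.995 (adjusted p = 0.348 and 0.162). Kcnj11, the pore of ATP-sensitive channels, and Kcnj12 were not called in any of the 3 comparisons, with differences from 0.07 to 0.29 and from -1.13 to 0.04. Kcnj2, a strong inward rectifier that lies next to Kcnj16 on chromosome 11, did not pass the filter and had signals of 1.12 to 19.1 over all arrays.

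Of the 6 two-pore channels tested, which carry background potassium leak, 1 was higher in line 3447 SP, 3 in line 4346 SP and 1 in line 3447 non-SP. Over all genes 10.7%, 14.0% and 11.2% were called higher. Of the 6 channels 0 were called lower by limma, where 8.96%, 10.3% and 8.20% of all genes were. An unadjusted p under 0.05 in either direction was found for 2, 5 and 1 of the 6, beside 3840, 4351 and 3774 of all 11893 genes. Kcnk1, a weakly conducting leak channel, read 1917, 1918 and 1997 in line 3447 SP, 2212, 2767 and 1732 in line 3447 non-SP and 2104, 2117 and 1570 in line 4346 SP. Neurosphere signals were 223, 688 and 879 in SP cells and 308.5, 607 and 652 in non-SP cells. The tumour arrays lay above the neurosphere arrays without overlap and varied little among themselves. Its differences were 1.84 ± 0.39 (adjusted p = 0.00309), 1.80 ± 0.39 (adjusted p = 0.00312) and 2.11 ± 0.39 (adjusted p = 0.00102).

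Kcnk2 and Kcnk15 were higher in line 4346 SP and called in neither line 3447 comparison. Kcnk2, a leak channel opened by stretch and lipids, read 1786, 3070 and 1553 in line 4346 SP against 449, 1160 and 428 in neurosphere SP, and 1085, 581 and 1266 in line 3447 SP. Line 4346 SP was above both, and line 3447 SP overlapped neurosphere SP. The difference from neurosphere SP was 1.68 ± 0.47 in line 4346 (adjusted p = 0.0164) and 0.55 ± 0.47 in line 3447 (adjusted p = 0.463). The line 4346 call was lost without neurosphere SP array 1 or 3 (adjusted p = 0.0648 and 0.0640) or line 4346 SP array 2 (0.0665). In the non-SP cells Kcnk2 differed by 0.38 ± 0.47 (adjusted p = 0.63). Kcnk15, which gives no current when expressed alone, read 183, 205.5 and 296 in line 4346 SP, 105, 92.1 and 172 in line 3447 SP and 57.7, 74.1 and 76.1 in neurosphere SP. The 3 groups did not overlap. Its differences from neurosphere SP were 1.53 ± 0.27 in line 4346 (adjusted p = 0.000669) and 0.54 ± 0.27 in line 3447 (adjusted p = 0.181), and that of the non-SP cells was -0.43 ± 0.27 (adjusted p = 0.313). The other tested members, Kcnk3, Kcnk5 and Kcnk10, were not called. The acid-sensitive leak channel Kcnk3 had the most negative values, -1.43, -1.40 and -1.11 (adjusted p = 0.103, 0.0958 and 0.216).

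**Figure D3:**
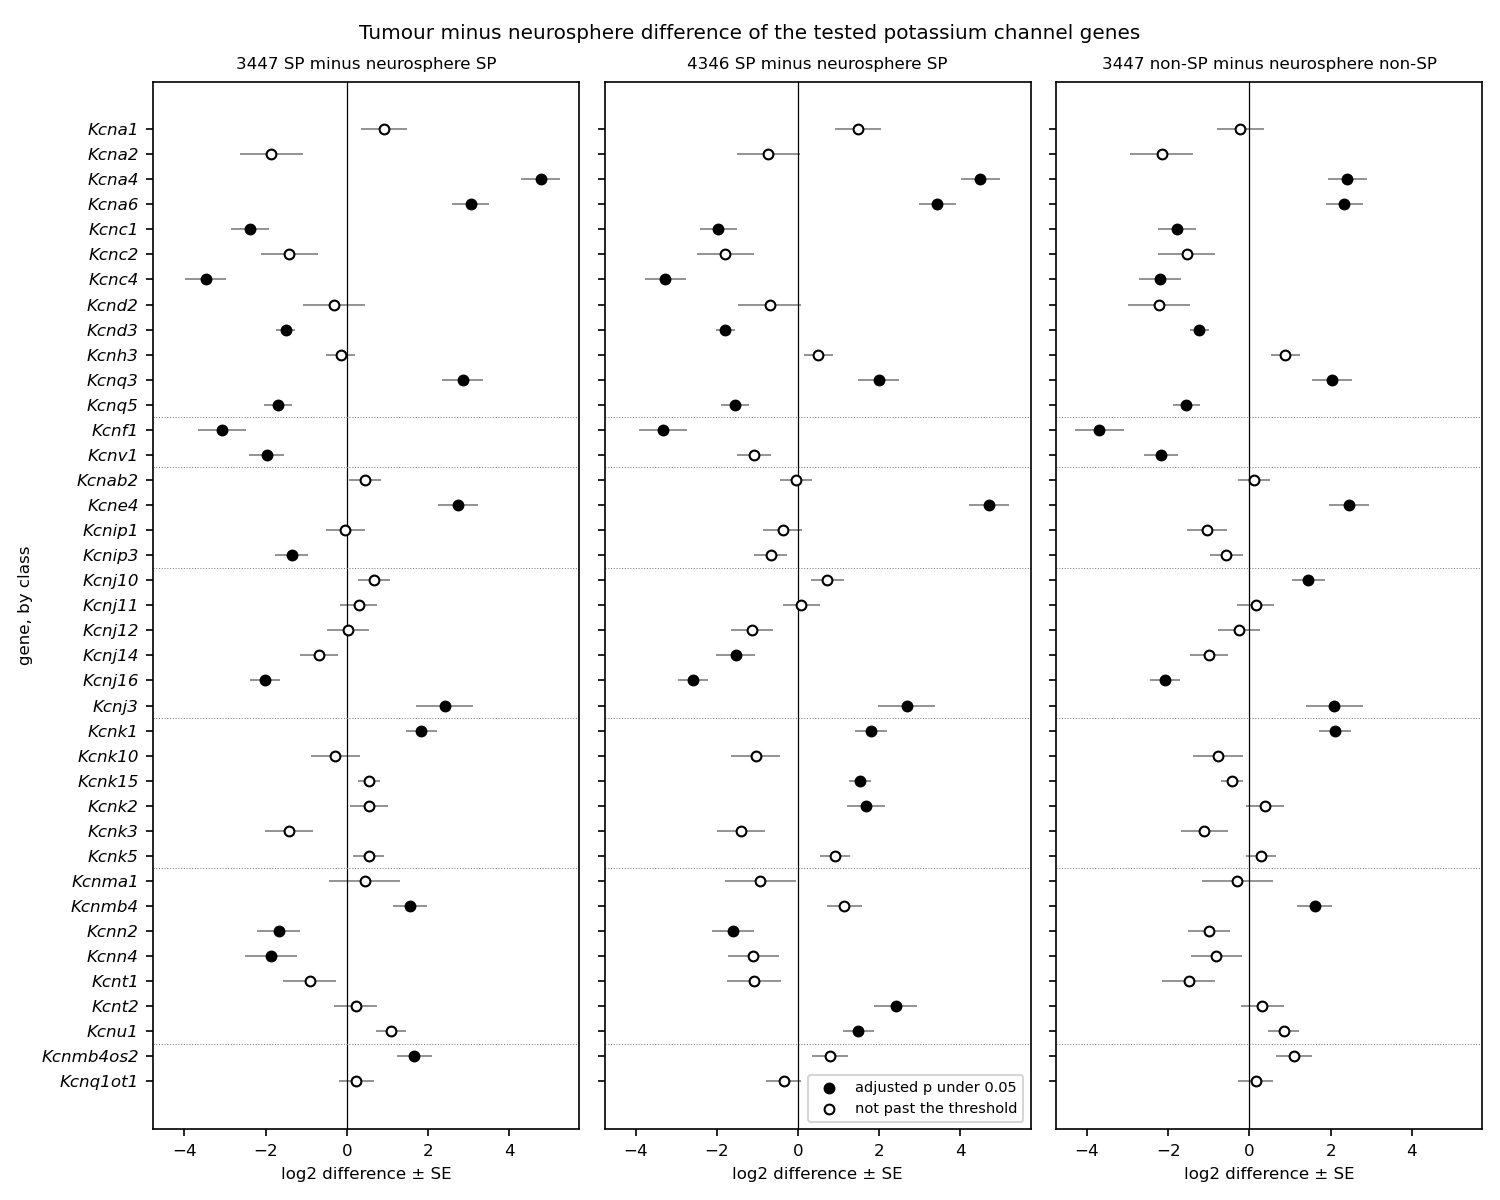
Each point is the log2 difference between a tumour group and its neurosphere control for 1 tested potassium channel gene, with its standard error from the fit over 15 arrays, and dotted lines separate the classes. Filled points passed an adjusted p of 0.05: 18, 18 and 15 of 39 genes from left to right.

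Calcium-activated channels and their relatives gave no gene called in all 3 tumour comparisons. Kcnmb4, the auxiliary subunit of the large-conductance channel in brain, was higher in line 3447. It read 435.5, 336 and 660.3 in line 3447 SP against 74.7, 155 and 221 in neurosphere SP (1.56 ± 0.43, adjusted p = 0.0171), and 785, 783 and 482 against 116, 213 and 370.2 in the non-SP groups (1.61 ± 0.43, adjusted p = 0.0142). Neither pair of groups overlapped. In line 4346 SP the signals were 473, 213 and 343, which overlapped the neurosphere arrays (1.14 ± 0.43, adjusted p = 0.0642). The line 3447 SP call was lost without neurosphere SP array 1 or line 3447 SP array 3 (adjusted p = 0.0886 and 0.0838). The non-SP call was lost without neurosphere non-SP array 1 or line 3447 non-SP array 1 or 2 (adjusted p = 0.0777, 0.0584 and 0.0560). Its pore partner Kcnma1 was not called, with differences of 0.44, -0.93 and -0.30 and a standard error of 0.88 (adjusted p = 0.777, 0.476 and 0.856).

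Kcnn2, a small-conductance channel that follows bursts of calcium, was lower in both SP comparisons. Its signals were 14.7, 21.9 and 36.2 in line 3447 SP and 18.3, 21.2 and 10.3 in line 4346 SP, against 104, 52.4 and 142 in neurosphere SP. Both tumour groups were below the control without overlap. The differences were -1.67 ± 0.53 (adjusted p = 0.0350) and -1.60 ± 0.53 (adjusted p = 0.0369), and -0.995 ± 0.53 (adjusted p = 0.214) in the non-SP cells. Each SP call was lost without neurosphere SP array 1 (adjusted p = 0.104 and 0.1003) or array 3 (0.127 and 0.127). The first was also lost without line 3447 SP array 1 or 3 (adjusted p = 0.114 and 0.0804), and the second without line 4346 SP array 1 or 3 (0.0572 and 0.127).

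Kcnn4, the intermediate-conductance channel known from immune cells and proliferating cells, read 6.40, 6.51 and 6.33 in line 3447 SP and 64.8, 70.7 and 53.4 in neurosphere SP. These arrays did not overlap, and the difference of -1.87 ± 0.63 had an adjusted p of 0.0492. That call was lost under 15 of 24 alternatives, 10 of them the omission of 1 array (adjusted p from 0.0588 to 0.137). The 10 were each neurosphere SP, line 3447 SP and line 3447 non-SP array and neurosphere non-SP array 1. In line 4346 SP array 3 read 82.5 and the others 2.88 and 3.73, and the difference of -1.10 (adjusted p = 0.224) became -1.87 (adjusted p = 0.0381) without array 3. The non-SP groups overlapped (-0.81, adjusted p = 0.42).

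Kcnt2, a sodium-activated channel grouped here by sequence, read 133, 511.5 and 143 in line 4346 SP, 64.6, 35.3 and 36.2 in line 3447 SP and 40.3, 26.4 and 24.9 in neurosphere SP. Line 4346 SP was above both other groups. Its difference from neurosphere SP was 2.41 ± 0.53 in line 4346 (adjusted p = 0.00363) and 0.22 ± 0.53 in line 3447 (adjusted p = 0.823), and the non-SP difference was 0.32 ± 0.53 (adjusted p = 0.736). Kcnu1, a relative best known from sperm, was higher in line 4346 SP, with 54.2, 57.4 and 51.8 against 5.28, 9.32 and 29.8 (1.48 ± 0.38, adjusted p = 0.00966). Its differences in line 3447 were 1.09 and 0.84 (adjusted p = 0.0537 and 0.137). Kcnt1 was called in none of the 3, with differences from -1.50 to -0.91.

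Of the noncoding transcripts, Kcnmb4os2, which lies beside Kcnmb4 on chromosome 10, was higher in line 3447 SP. It read 106, 92.0 and 246 there against 20.7, 20.3 and 57.6 in neurosphere SP, without overlap (1.67 ± 0.44, adjusted p = 0.0127). The call was lost without neurosphere SP array 1 or line 3447 SP array 3 (adjusted p = 0.0527 and 0.0710). Its differences in line 4346 SP and in the non-SP cells were 0.79 and 1.10 (adjusted p = 0.204 and 0.092). Kcnq1ot1, an imprinted RNA transcribed within Kcnq1, read between 397 and 1427 over all 15 arrays and differed by 0.23, -0.35 and 0.16 (adjusted p = 0.755, 0.597 and 0.844), while Kcnq1 itself did not pass the filter.

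The lines were compared directly in their SP cells. Kcnt2 was lower in line 3447 SP than in line 4346 SP by 2.19 ± 0.53 on the log2 scale (adjusted p = 0.0491) and was the 1 Kcn gene called, where 1.66% of all genes were called (0.462% higher and 1.19% lower). Its arrays, given above, did not overlap, but the call was lost under 18 of 25 alternatives. 13 of these were the omission of 1 array, with adjusted p between 0.0538 and 0.177, and line 3447 SP array 3 gave the highest. The call stayed when neurosphere non-SP array 2 or 3 was left out. In limma the unadjusted p was under 0.05 for 1978 of all 11893 genes and for 5 of the 39 Kcn genes. Besides Kcnt2, these 5 were Kcne4 (-1.98 ± 0.49, adjusted p = 0.0572), Kcnk15 (-0.99 ± 0.27, adjusted p = 0.0816), Kcnk2 (-1.13 ± 0.47, adjusted p = 0.248) and Kcnj12 (1.17 ± 0.52, adjusted p = 0.268). For each of these 5 genes the line 4346 SP and line 3447 SP arrays did not overlap. The 5 were picked by p on these same arrays, and the share without overlap over all genes was not counted. Kcnj12 was the only one of them with the higher signals in line 3447. With arrays centred on their medians Kcnk2 was called between the lines (-1.52, adjusted p = 0.0438), a scaling that itself moved the median of all genes to -0.38.

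SP and non-SP cells were compared within each origin. Within line 3447 no Kcn gene was called by limma, where 0.00841% of all genes were called. An unadjusted p under 0.05 was found for 859 of all 11893 genes and for 3 of the 39 Kcn genes. Kcna4 had the smallest p, with the SP arrays at 849.8 to 1075 and the non-SP arrays at 199.9 to 337, a difference of 1.68 ± 0.48 (adjusted p = 0.35). The ranges did not overlap, and a fit restricted to these 6 arrays gave an adjusted p of 0.0323. Kcna1 read 114, 76.6 and 76.3 in SP cells and 1.43, 40.4 and 25.3 in non-SP cells, without overlap (1.25 ± 0.57, adjusted p = 0.674). Kcnd3 was next, with overlapping arrays (-0.48 ± 0.23, adjusted p = 0.691).

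Within neurospheres no Kcn gene was called either, where 0.0168% of all genes were called. The unadjusted p was under 0.05 for 428 of all 11893 genes and for 2 of the 39 Kcn genes. Kcnk15 read 57.7, 74.1 and 76.1 in SP cells and 154, 142 and 109 in non-SP cells, a difference of -0.78 ± 0.27 (adjusted p = 1.00) between groups that did not overlap. Kcnv1 (-0.95 ± 0.42) and Kcnmb4os2 (-0.91 ± 0.44) followed, both with an adjusted p of 1.00. For the difference between the SP effects of line 3447 and of neurospheres, limma called no Kcn gene, and 0% of all genes were called. Here the unadjusted p was under 0.05 for 266 of all 11893 genes and for 2 of the 39 Kcn genes. Kcna4 again had the smallest p, since its SP minus non-SP difference was 1.68 in line 3447 and -0.68 in neurospheres, an interaction of 2.36 ± 0.67 (adjusted p = 0.999). Kcnk15 gave 0.97 ± 0.38 and Kcnh3 gave -1.03 (adjusted p = 0.999 for both).

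**Figure D4:**
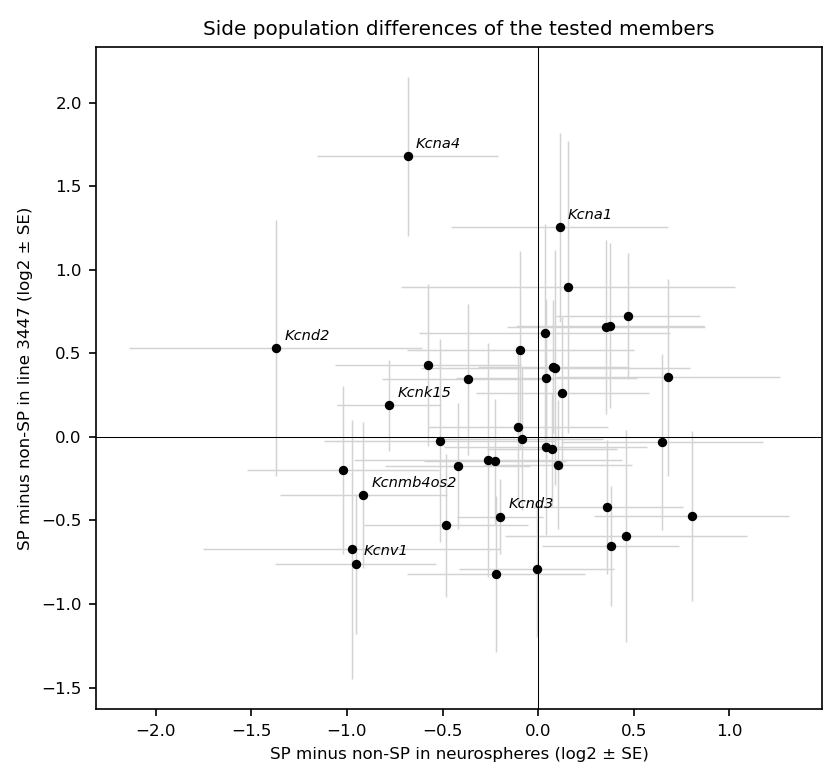
Each point is 1 of the 39 tested genes, placed by its SP minus non-SP log2 difference in neurospheres (horizontal axis) and in line 3447 (vertical axis), with standard errors in grey. No gene passed the threshold on either axis, and Kcna4, at -0.68 and 1.68, lies highest.

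Replicate arrays of these genes were also compared among themselves. The median over the 39 genes of the pooled within-group standard deviation was 0.73 on the log2 scale in neurosphere groups and 0.53 in tumour groups. Kcnma1, the pore of the large-conductance calcium-activated channel, had the widest neurosphere spread (1.79), followed by Kcnd2 (1.62), Kcna2 (1.45) and Kcnc2 (1.43). Kcnma1 read 1196, 1073 and 96.7 in the SP arrays and 1331, 567 and 117 in the non-SP arrays, so that the arrays numbered 3 were lowest in both. Kcna2, a Shaker-type delayed rectifier of axons, read 227, 911 and 87.1 in SP and 415, 1470 and 262 in non-SP arrays, with number 2 highest in both. Kcnd2 read 636, 1359 and 83.2 in SP and 1662, 1949 and 452 in non-SP arrays, again with number 3 lowest. The same order of the arrays in both fractions went with deviations over all genes that correlated between equally numbered neurosphere arrays (r = 0.578, 0.523 and 0.622).

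**Figure D5:**
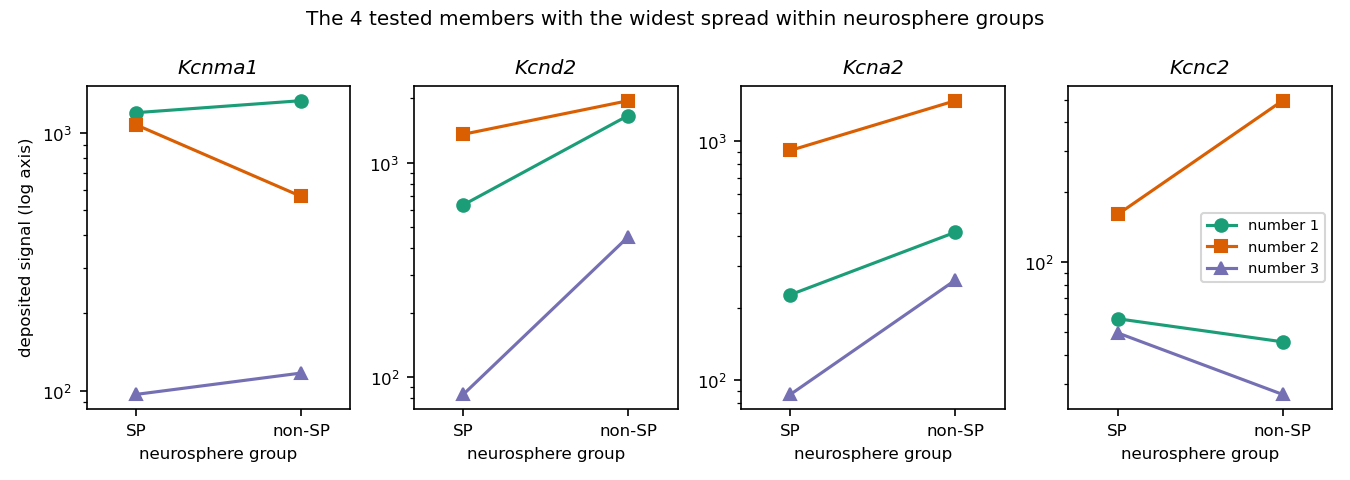
Deposited signals of the 4 tested genes with the widest spread within neurosphere groups, on a log axis, with a line joining the SP and non-SP arrays of the same replicate number. Number 3 is lowest in all 8 columns, and number 2 is highest in both fractions for Kcnd2, Kcna2 and Kcnc2.

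Of 45 genes that were not tested, Kcnh2, a voltage-gated pore subunit best known from heart, reached the highest signal. It ranged from 1.47 to 172, exceeded the array median on 2 arrays and had its highest group mean, 84.2, in line 4346 SP. Kcna3, a Shaker-type channel of lymphocytes and microglia, read 1.03 to 42.2 and exceeded the median on none. Others that exceeded it on 2 arrays were Kcng1, Kcnip4, Kcnj8, Kcnn1 and Kcns1.

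Genes that work with potassium channels were read from a list of 41 symbols, of which 32 were measured and 19 tested. In line 3447 SP 4 were higher and 2 lower than in neurosphere SP, in line 4346 SP 6 were higher and 2 lower, and in line 3447 non-SP 3 were higher and 1 lower. These are 31.6%, 42.1% and 21.1% of the 19, beside 19.6%, 24.3% and 19.4% of all genes, so the non-SP share was near that of all genes. Slc12a7, a potassium-chloride cotransporter, was higher in all 3, with mean signals of 376 ± 26.8, 445 ± 11.5 and 385 ± 17.7 (SD, n = 3) in line 3447 SP, line 4346 SP and line 3447 non-SP against 55.4 ± 18.7 and 24.0 ± 13.1 in neurosphere SP and non-SP. Its differences were 2.45, 2.74 and 3.40 on the log2 scale (adjusted p = 5.08e-06, 1.64e-06 and 1.53e-07). Fxyd1, a small regulator of the sodium-potassium pump, was also higher in all 3 (3.14, 3.78 and 2.74, adjusted p = 0.000733, 0.000132 and 0.00219). Its relative Fxyd5 was higher in both SP comparisons (3.38 and 2.72, adjusted p = 0.00419 and 0.0144). Dpp10, an auxiliary subunit of the Kcnd channels, was higher in all 3 (2.13, 1.68 and 2.65, adjusted p = 0.00564, 0.02 and 0.00107), while its partner Kcnd3 was lower. Amigo1, a partner of the Kcnb channels, was lower in both SP comparisons (-2.19 and -1.48, adjusted p = 0.00351 and 0.0318). Dlg1, a scaffold that anchors channels, was lower in all 3 (-0.86, -0.70 and -0.66, adjusted p = 0.00857, 0.0234 and 0.0373). Slc12a4 and Dag1 were called higher in line 4346 SP (0.88 and 1.01, adjusted p = 0.0164 and 0.0130). The 2 hyperpolarisation-activated channels measured did not pass the filter.

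Other probe sets of the same genes bear on how far each value depends on the probe set used. Of the 52 called results in the tumour comparisons and between the lines, 37 belonged to genes with another probe set, which gave 63 further values. Of these, 9 had the opposite sign. All 9 came from probe sets that did not pass the level filter, and the 26 values from probe sets that did pass had the same sign as the reported value.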

How the data were processed

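Total RNA of sorted cells was amplified (Ovation Pico kit, per the labels) and hybridised to Affymetrix arrays, 15 in 5 groups of 3. The authors deposited a linear signal intensity per probe set. Per the submitters' processing notes it was made with MAS5 in Affymetrix Expression Console, in a version not given in the sources used here. Each array has a trimmed mean of 500 without the extreme 2% at either end, so deposited intensity is already scaled per array. The number of arrays limits the precision.

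Of 45101 probe sets, 64 controls were left out. Deposited intensity plus 16 was taken to log2 and quantile-normalized, and the printed signals are the deposited ones. The added 16 understates changes of low genes. A gene was tested where its probe set exceeded the array median on at least 3 arrays. limma 3.58.1 in R 4.3.3 fitted 5 group means (10 residual degrees of freedom, eBayes with trend) for 7 comparisons, with Benjamini-Hochberg adjustment over 11893 genes and a threshold of 0.05. The fit was tested on simulated data.

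All Kcn symbols matched RefSeq (84 of 84, 0 changed). Promoter windows come from RefSeq, GRCm38.p6. The members and all lists were chosen with earlier results of these data known. Any gene past the threshold could be named, with full values for up to 10 per tumour comparison and the 3 smallest p where none was called. 11 genes were named whatever their values: Kcnj10, Kcnj16, Kcnj2, Kcnk1, Kcnk2, Kcnma1, Kcnn4, Kcnh2, Kcna3, Kcnd2 and Kcnq1ot1. The remaining tested members are named so that all 39 are accounted for.

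The labels call arrays biological replicates and do not say what equally numbered arrays shared. Equally numbered neurosphere SP and non-SP arrays deviated together (r = 0.578, 0.523 and 0.622), and the main fit held no term for this. Equally numbered arrays of line 3447 did not (r = -0.224, -0.248 and -0.121). In that line r was positive for SP array 1 with non-SP array 2 (0.365), 2 with 3 (0.297) and 3 with 1 (0.219). Whether these arrays were pairs under other numbers was not tested, and the blocks used equal numbers. Alternatives covered the scaling, pseudocount (1 and 64), filter, probe set, arrays in the fit, eBayes trend, replicate block and omission of each array.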

Additional observations from a re-analysis of the deposited data

Results flagged for a closer look

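Kcnt2 differed between the tumour lines in SP cells. Its log2 difference from neurosphere SP was 2.41 in line 4346 and 0.22 in line 3447, and the test of the difference between the lines gave -2.19 (line 3447 minus line 4346, adjusted p = 0.0491, limma). The call was lost under 18 of 25 alternatives, with adjusted p up to 0.177. Both lines were set against the same neurosphere SP arrays. With 1 injected line each, the lines and anything else that separated them cannot be told apart.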

How the results depend on the processing

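No member difference that was called changed sign under any alternative run, and of 52 called results 34 kept their call under all of them. Called Kcn genes numbered 17 to 19 between line 3447 SP and neurosphere SP across settings other than leaving out an array (18 as reported), 18 to 21 for line 4346 SP (18) and 13 to 17 for line 3447 non-SP (15). These settings tested 39 members, except 34 with the mean of all probe sets and 84 with no filter, so the counts do not share 1 base. Leaving out 1 array gave 12 to 19, 14 to 19 and 11 to 17, with 37 to 39 members tested. Over all genes, the line 3447 SP comparison gave 1571 to 2350 calls across the other settings. It gave 1699 to 2791 when 1 array was left out (2335 as reported). Between the lines the count of 1 became 0 with no normalization between arrays, 4 with arrays centred on their medians, 0 with no filter on low values, 2 with a pseudocount of 64, 0 with a pseudocount of 1 and 2 with the mean of all probe sets, and was 0 to 1 when 1 array was left out. Between SP and non-SP cells of line 3447 the count of 0 became 1 in a fit of only the groups compared, and was 0 when 1 array was left out. The cause of these changes was not tested. With the replicate number as a block the counts were 17, 18 and 17 in the tumour comparisons and 1 between the lines. Kcnn4 lost its line 3447 SP call (adjusted p = 0.0532), and Kcnd2 was among the genes that gained a non-SP call (adjusted p = 0.0258). This block joined equal numbers across origins, which the labels do not link. Blocks by number within origins left 0 Kcn genes called between SP and non-SP cells in either origin and for the interaction. Single genes that lost a call elsewhere were Kcnn2 with a pseudocount of 1 (adjusted p = 0.0501 and 0.0526), Kcnc1 in the non-SP comparison with the same pseudocount (adjusted p = 0.0642), Kcnu1 with no normalization (adjusted p = 0.0543) and Kcnj3 in line 4346 SP in a fit of only the groups compared (adjusted p = 0.0652). Centring on medians moved the median of all genes by over 0.1 in 6 of 7 comparisons, to between -0.38 and 0.20. Groups of 3 arrays limit what can be called, and low genes are close to the array median, where differences are understated.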
